A study of Mus musculus with 6 samples.

Results

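The genes described here encode the proteins of the cytosolic ribosome. They were the rows of the deposited table whose symbol began with Rpl or Rps and a number, together with Rplp0, Rplp1, Rplp2 and Rpsa, and without the S6 kinase genes; 87 of the 16862 genes in the table met this rule, which used names only and no measured value. By name, 45 of them encode proteins of the large subunit, 31 encode proteins of the small subunit, 8 are paralogs of a subunit gene, 2 carry the symbol of a pseudogene and 1, Rps19bp1, encodes a protein that binds Rps19. The row listed as Rps4y2 is the gene that RefSeq names Rps4l and classes as a transcribed pseudogene, and Rps3a is Rps3a1 in RefSeq.

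Gene expression was measured by RNA sequencing of whole gonads of male C57BL/6 mouse embryos at E13.5 (embryonic day). The 3 wild-type libraries (WT 1, WT 3 and WT 4) carried both prostaglandin D synthases, and the 3 knockout libraries (KO 5, KO 7 and KO 8; L/H-Pgds-/-) lacked both enzymes, L-Pgds, encoded by Ptgds, and H-Pgds, encoded by Hpgds. The labels speak of 6 littermates, name no batch or treatment, and do not state that each library is 1 embryo; if it is not, the p-values measure only the spread between these libraries, which may be technical. The comparison of the knockout with the wild type asked how loss of prostaglandin D2 synthesis changes the fetal testis.

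A ribosome consists of a small subunit, which reads the messenger RNA, and a large subunit, which joins the amino acids; each combines ribosomal RNA with many small proteins that are needed in equal numbers. Their messages are short, are among the most abundant in a dividing cell, and mostly begin with a stretch of C and T bases, the 5' terminal oligopyrimidine (TOP) tract, through which the mTOR kinase controls how often they are translated. Mammalian genomes hold many processed pseudogenes of these genes, copies made from their messages that lack introns.

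Ribosomal protein messages of both subunits were lower in the knockout gonad, the wild-type mean being a median of 1.56 times the knockout mean among those called, and many other messages as short as these were lower too. Values are the authors' upper-quartile normalised pseudo-counts, which are adjusted fractional values and not reads, so the sequencing depth is unknown. The test was limma's moderated test on log2(value + 1), two-sided, with Benjamini-Hochberg adjustment over 15116 genes, those reaching 10 in no fewer than 3 libraries, and a gene was called at an adjusted p under 0.05. Of the 86 members tested, 47 were called lower and 0 higher in the knockout, against 17.0% lower and 17.3% higher among all genes tested. Once a trend on transcript length and GC content, described below, was removed within each library, 6 of the 83 members with a known length were called lower, with a median log2 change of -0.05. Of the 46 called members with a length, 41 were then not called and 6 lay above 0. Fitted changes were below 0 in 82 members and above 0 in 4. The members' median log2 change was -0.48, with an interquartile range from -0.65 to -0.33, against a median of -0.03 over all genes tested. In 51 members all 3 knockout libraries lay below all 3 wild-type libraries, against 25.6% of all genes. With scaling to equal totals, which raised the median log2 change of all genes by 0.10, 43 members were called lower, and over all genes 1690 were lower and 3511 higher, against 2571 and 2609 as deposited. The remaining member, Rpl3l, the heart and skeletal muscle counterpart of Rpl3, did not pass the filter, with 18.4 in WT 1 and at most 8.15 in the other libraries.

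**Figure D1:**
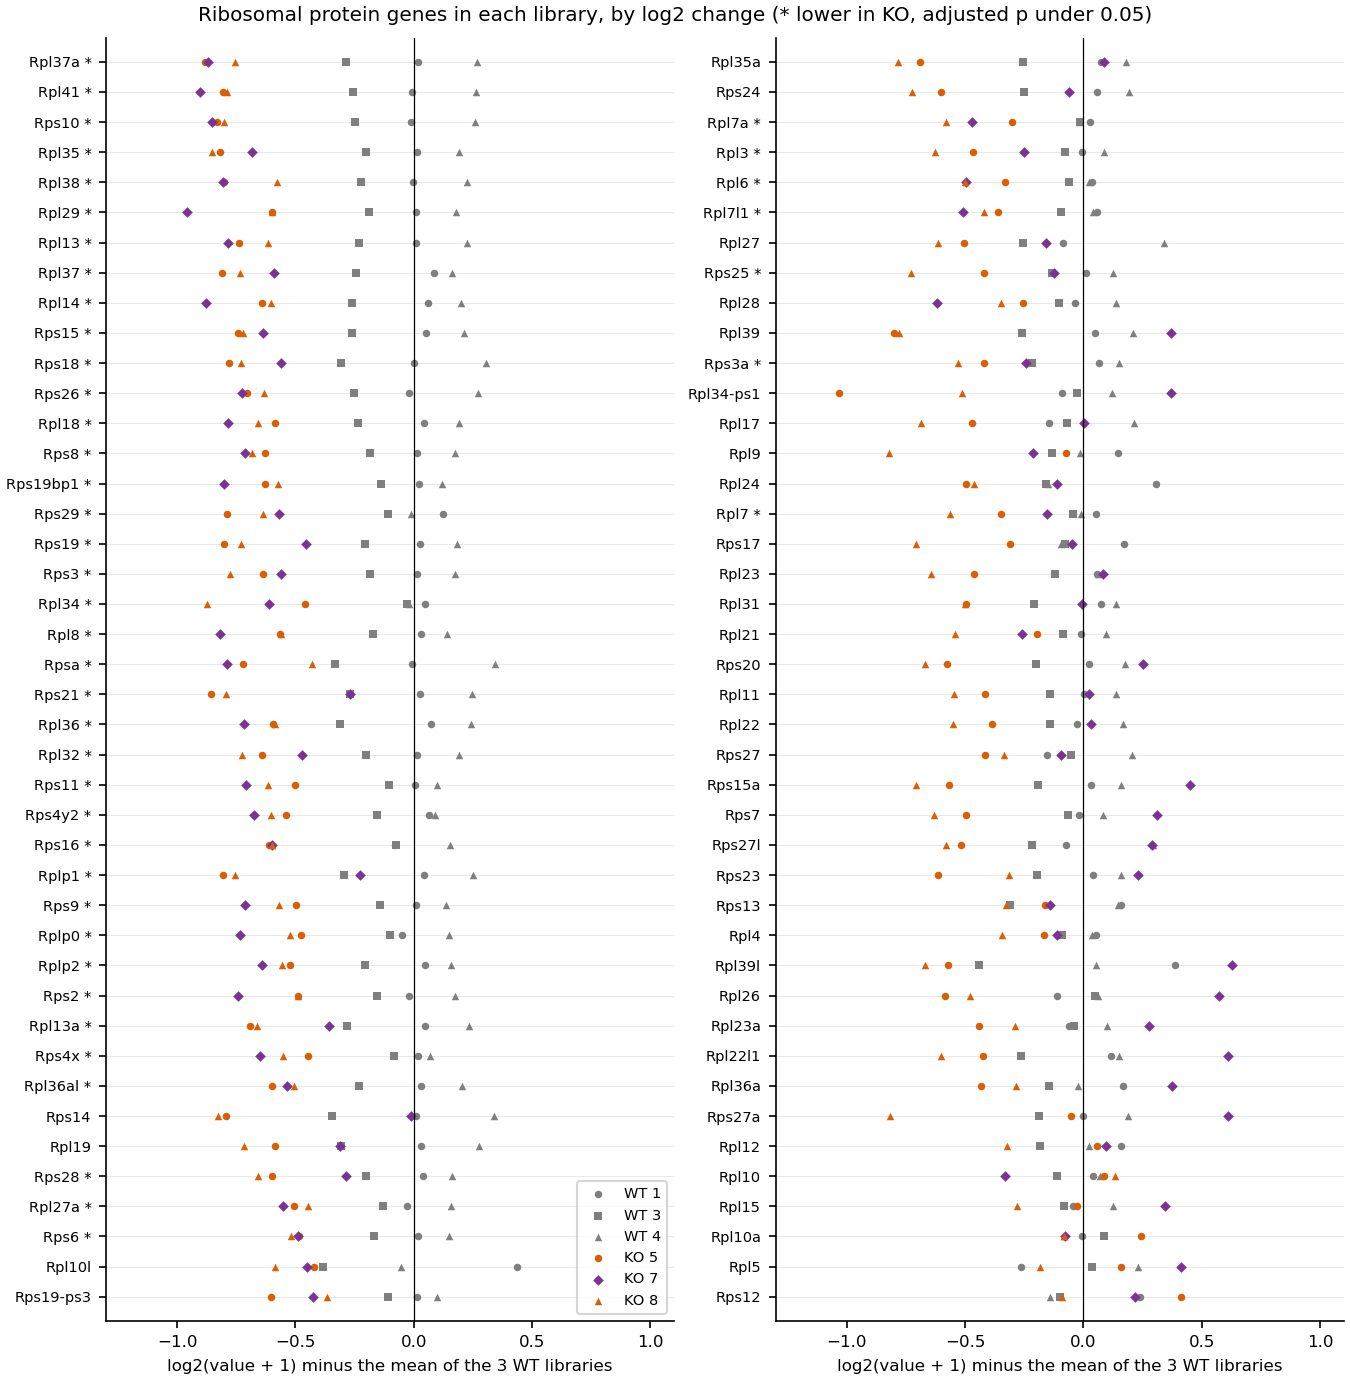
Each row is a ribosomal protein gene and each symbol a library: log2(value + 1) minus the mean of the 3 wild-type libraries, with wild type in grey, KO 5 and KO 8 in orange and KO 7 in purple, and with an asterisk for the 45 of the 84 genes drawn that were called lower. In 40 of the 42 rows of the left panel all knockout libraries lie below all wild-type libraries, whereas in 31 of the 42 rows of the right panel KO 7 lies above the lowest wild-type library.

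Several series-wide values bear on these results. Ptgds, one of the deleted genes, had values of 6560, 8137 and 8712 in the wild type and of 15.2, 4.0 and 2.94 in the knockout, whereas Hpgds lay between 45.0 and 55.03 in the wild type and between 87.3 and 103.7 in the knockout; the deleted part of Hpgds is not given in the sources used here, so its value checks nothing. Germ cell, Sertoli cell and fetal Leydig cell markers were present in every library. Summed Sertoli cell markers (6 genes, 1 called lower and 1 higher) ranged from 104723 to 124240 in the wild type. In the knockout they ranged from 72394, in KO 7, to 105959. Summed fetal Leydig cell markers (5 genes, 1 called lower) ranged from 65156 to 107076 in the wild type and from 48764 to 69394 in the knockout. The summed markers of skeletal or smooth muscle (6 genes, 4 called lower) ranged from 9516 to 22260 in the wild type and from 6805 to 7703 in the knockout, and those of leukocytes (6 genes, 3 called lower) from 1001 to 1415 and from 697 to 837. The summed markers of endothelium (4 genes, 1 called higher) ranged from 4463 to 6145 in the wild type and from 6190 to 6563 in the knockout, and erythroid markers summed to 37126 in WT 1 and to between 83268 and 139415 elsewhere. Their part in the members' change was not tested, and in whole gonads a smaller share of cells with many ribosomes and less RNA per cell cannot be told apart.

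The promoters of the members show the features by which this gene family is known, so stretches around the annotated starts of some of the messages described below are printed here. RefSeq promoter windows on GRCm38.p6, from 250 bases before to 50 bases after each annotated start, held 77 windows of 65 members. Windows of the same gene can overlap, so a site can count more than once, as did the tract of Rpl35a. A tract of a C followed by at least 5 further pyrimidines, C or T on the sense strand, beginning between 10 bases before and 25 bases after the annotated start, was found in 45 of the 77 windows (58.4%), against 27.7% of 15128 windows of the genes tested. The stretches of 30 bases below hold this tract in capitals.
Rpl37a, chr1:72711276-72711305, plus strand: cattgcgtCCCTTCCTCTTCggacttgggc
Rps10, chr17:27635226-27635255, minus strand: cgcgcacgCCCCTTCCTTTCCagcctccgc
Rpl35, chr2:39005117-39005146, minus strand: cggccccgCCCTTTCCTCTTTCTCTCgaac
Rpl38, chr11:114668572-114668601, plus strand: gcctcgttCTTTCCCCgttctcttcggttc
Rps6, chr4:86857347-86857376, minus strand: aagtcgggCCTCTTTTTCgtgacgcctccc
Rplp2, chr7:141447639-141447668, plus strand: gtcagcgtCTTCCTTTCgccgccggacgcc
Rpl39, chrX:37085195-37085224, minus strand: tctagcgaCTTCTTCTaatcgcgttcttcc
Rps15a, chr7:118116126-118116155, minus strand: tctgccatCTTCCCTCgccggtgagtgagt
Rpl15, chr14:18270969-18270998, minus strand: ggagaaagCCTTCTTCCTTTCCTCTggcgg
The first 6 of these genes were called lower in the knockout, while Rpl39, Rps15a and Rpl15 were not. A tract thus stood near the annotated start in genes of both kinds. Counted with 1 as the first base of the message, it began at 25 in Rpl37a, at 7 in Rpl39 and between -7 and 1 in the others.

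The letters CCGGAAG hold the core that ETS-family factors such as GABP bind. Over the whole window, before and after the start, they were found on either strand in 27 of the 77 member windows (35.1%). This compares with 15.4% of the windows of all genes tested. The letters AAGATGGC, the core bound by YY1, were found in 8 windows (10.4%, against 3.87%), GGGCGG, a GC box, in 47 (61.0%, against 60.1%) and TATAAA in 7 (9.09%, against 7.58%), each on both strands. In 0 of the 77 member windows did matches of different motifs overlap; over the 15128 windows, CCGGAAG and GGGCGG overlapped in 56, AAGATGGC and GGGCGG in 2 and CCGGAAG and AAGATGGC in 1. A match is a description of the sequence only. The 150 bases before the start are shown for 3 of the genes with the lowest log2 changes, with CCGGAAG in capitals.
Rpl41, chr10:128549169-128549318, minus strand: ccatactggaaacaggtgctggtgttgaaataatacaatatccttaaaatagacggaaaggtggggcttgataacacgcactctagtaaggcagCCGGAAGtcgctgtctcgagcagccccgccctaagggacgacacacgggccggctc
Rpl38, chr11:114668430-114668579, plus strand: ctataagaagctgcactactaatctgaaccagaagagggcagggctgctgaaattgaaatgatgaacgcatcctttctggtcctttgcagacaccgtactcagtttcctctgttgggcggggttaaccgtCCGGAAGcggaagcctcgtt
Rps10, chr17:27635245-27635394, minus strand: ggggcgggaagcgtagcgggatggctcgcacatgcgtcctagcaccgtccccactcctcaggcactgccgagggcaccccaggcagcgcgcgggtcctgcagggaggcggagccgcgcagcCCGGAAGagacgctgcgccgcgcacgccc
In these 3 genes the match lay nearer to the start than to the far end of the stretch. In Rpl35, which is not shown and had a lower log2 change than Rpl38, it lay near the far end. The position is therefore no common trait of the members.

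Together the members made up 4.43%, 3.88% and 4.86% of the summed values in WT 1, WT 3 and WT 4, and 3.13%, 3.50% and 2.98% in KO 5, KO 7 and KO 8. All 3 knockout libraries lay below all 3 wild-type libraries, with means of 4.39% ± 0.49 (SD, n = 3) and 3.20% ± 0.27 (SD, n = 3). Large subunit genes went from 2.16% ± 0.22 to 1.61% ± 0.10 and small subunit genes from 2.11% ± 0.26 to 1.49% ± 0.16. The 10 members with the highest values supplied 58.9% of the members' sum, so the share mainly follows those genes. The knockout minus wild-type difference in the share was -1.19 percentage points as deposited, -0.73 after quantile normalisation and -0.68 after cyclic loess normalisation.

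The level was taken as the value per kilobase of the longest protein-coding transcript, and among the highest levels were those of Rplp1, Rpl8, Rpl13a, Rps14 and Rps15, of which all but Rps14 were called lower. Rpl8, which lies near the site where peptide bonds are made, had values of 87188, 75808 and 94061 in the wild type and of 57698, 48438 and 57847 in the knockout (log2 change -0.65 ± 0.14 SE, adjusted p = 0.00596). Rps15 had values of 37743, 30375 and 42134 against 21784, 23410 and 22083 (log2 change -0.70 ± 0.13 SE, adjusted p = 0.00345). In both genes the knockout libraries lay below all wild-type libraries, but with the length and GC trend removed Rps15 stood at 0.057 (adjusted p = 0.741).

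Rpl13a and Rps14 differed from these in the knockout library KO 7. Rpl13a, a large subunit protein that also takes part in silencing of inflammatory messages, had values of 74861, 59585 and 85144 in the wild type and of 44874, 56487 and 45764 in the knockout (log2 change -0.57 ± 0.16 SE, adjusted p = 0.0195). Rps14, a small subunit protein whose loss of 1 copy underlies the anaemia of the human 5q- syndrome, had values of 47516, 37139 and 59650 against 27254, 46849 and 26603. KO 7 was close to WT 3 in Rpl13a and level with WT 1 in Rps14, while KO 5 and KO 8 were below every wild-type library in both. The log2 change of Rps14 was -0.54 ± 0.23 (SE; adjusted p = 0.091) and did not pass the threshold; without KO 7 it was -0.81 (adjusted p = 0.0123).

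Among the members with the lowest log2 changes were Rpl37a, Rpl41, Rps10, Rpl35, Rpl38 and Rpl29, and all of these but Rps10 encode large subunit proteins. Rpl37a had values of 6664, 5401 and 7916 in the wild type and of 3567, 3604 and 3893 in the knockout, 1.81-fold higher in the wild type by group means (log2 change -0.84 ± 0.13 SE, adjusted p = 0.00193). Rpl41, the shortest of the ribosomal proteins, had 9312, 7845 and 11229 against 5346, 5010 and 5422 (log2 change -0.83 ± 0.12 SE, adjusted p = 0.00185). Rps10 had 8741, 7421 and 10525 against 4945, 4879 and 5045 (log2 change -0.83 ± 0.12 SE, adjusted p = 0.0018). The knockout values of these genes clustered tightly and none reached the lowest wild-type value, which was in WT 3 each time. Rpl35, which sits by the tunnel through which the new protein leaves, had 2816, 2426 and 3189 in the wild type and 1582, 1736 and 1546 in the knockout (log2 change -0.79 ± 0.11 SE, adjusted p = 0.00173). With the length and GC trend removed, Rpl37a was still called lower, while Rpl41, Rps10, Rpl35, Rpl38 and Rpl29 were not. Rpl35 then stood at -0.18 (adjusted p = 0.216). Across the 47 called members the ratio of the wild-type to the knockout mean ran from 1.27 to 1.81, with a median of 1.56.

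The acidic stalk of the large subunit, which recruits elongation factors, is made of Rplp0, Rplp1 and Rplp2, and all 3 were called lower. Rplp0, the base of the stalk, had values of 40757, 39328 and 46786 in the wild type and of 30350, 25343 and 29367 in the knockout (log2 change -0.58 ± 0.12 SE, adjusted p = 0.00548). Rplp1 had 46890, 37005 and 54102 against 25971, 38771 and 26915 (log2 change -0.60 ± 0.18 SE, adjusted p = 0.0283). Rplp2 had 21993, 18418 and 23706 against 14772, 13617 and 14445 (log2 change -0.57 ± 0.11 SE, adjusted p = 0.00422). Their log2 changes were thus nearly equal, but only in Rplp1 did the groups overlap, where KO 7 exceeded WT 3. Its call was lost without WT 4 (adjusted p = 0.113), without KO 5 (0.119) and without KO 8 (0.0899), and with the length and GC trend removed it stood at 0.13 (adjusted p = 0.554).

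Of the 31 small subunit genes, 20 were called lower (64.5%), with a median log2 change of -0.55. The share was 17.0% over all genes and 46.3% in the shortest of 5 equal groups of genes by transcript length. Rps6, the ribosomal protein phosphorylated by the S6 kinases, had values of 678.3, 594.7 and 742.9 in the wild type and of 477.6, 476.5 and 467.1 in the knockout (log2 change -0.50 ± 0.11 SE, adjusted p = 0.00828). Rps19, the gene most often mutated in Diamond-Blackfan anaemia, had 9928, 8463 and 11070 against 5592, 7126 and 5887 (log2 change -0.66 ± 0.12 SE, adjusted p = 0.00362). Rpsa, also known as a receptor for laminin, had 865.9, 691.0 and 1106 against 528.6, 503.8 and 646.5 (log2 change -0.65 ± 0.17 SE, adjusted p = 0.0145). The groups did not overlap in any of the 3 genes, but with the length and GC trend removed none of them was called. With the length trend alone removed, Rps6 stood at 0.0026 (adjusted p = 0.99). Rps27a, which is made as a fusion with ubiquitin, had 85.7, 75.2 and 97.8 in the wild type and 82.7, 131.6 and 48.3 in the knockout, where the highest and the lowest value of all 6 libraries both came from knockout gonads (log2 change -0.08 ± 0.32 SE, adjusted p = 0.858).

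Of the 45 large subunit genes, 23 were called lower (51.1%), with a median log2 change of -0.45. This compares with 17.0% of all genes and 46.3% of the shortest of 5 equal groups by transcript length. Rpl38, which the Tail-short mutant mouse lacks in 1 copy and which is needed to translate several Hox messages, had values of 1171, 1004 and 1370 in the wild type and of 672.5, 670.3 and 783.8 in the knockout (log2 change -0.73 ± 0.13 SE, adjusted p = 0.00285). The groups did not overlap, but with the length and GC trend removed Rpl38 stood at 0.039 (adjusted p = 0.862). Rpl5 and Rpl11 bind the 5S ribosomal RNA and, when ribosome assembly fails, the p53 inhibitor Mdm2. Rpl5 had values of 91.8, 113.4 and 129.7 in the wild type and of 123.5, 147.4 and 97.2 in the knockout (log2 change 0.13 ± 0.21 SE, adjusted p = 0.664). Rpl11 had 177.7, 160.9 and 195.5 against 132.7, 180.4 and 121.2 (log2 change -0.31 ± 0.19 SE, adjusted p = 0.22). Rpl10a, which forms the stalk at the exit side of the ribosome, had 151.5, 161.8 and 143.9 against 180.6, 144.2 and 143.7 (log2 change 0.03 ± 0.16 SE, adjusted p = 0.907). In all 3 genes the groups overlapped, and their values were far below those of most other members. Besides Rpl5 and Rpl10a, the members above 0 were Rpl15, with 3502, 3413 and 3941 against 3540, 4583 and 2977 (log2 change 0.01 ± 0.14 SE), and Rps12, with 69.6, 54.8 and 53.2 against 78.5, 68.6 and 55.1 (log2 change 0.18 ± 0.23 SE), and neither passed the threshold.

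Paralogs of subunit genes encode variants that can take the place of the main protein in some tissues. Of the 7 paralogs tested, 3 were called lower (42.9%, against 17.0% of all genes): Rpl36al, Rpl7l1 and Rps4y2, the last a transcribed pseudogene in RefSeq. With the length and GC trend removed, 1 of the 6 paralogs with a length, Rpl7l1, was called lower. Rpl36al had values of 2794, 2334 and 3150 in the wild type and of 1810, 1889 and 1929 in the knockout (log2 change -0.55 ± 0.11 SE, adjusted p = 0.00495), while its parent Rpl36a had 183.3, 147.3 and 160.6 against 120.5, 211.5 and 133.8 (log2 change -0.11 ± 0.22 SE, adjusted p = 0.71). In the wild type the paralog was listed at the higher level, 2162 ± 320 (SD, n = 3) against 339.0 ± 37.7 (SD, n = 3) per kilobase. However, 85.5% of the 50-base stretches of Rpl36a were also found in other genes. How reads that match several genes were counted is not known, so the order of this pair is uncertain. Rpl7l1 had 5181, 4669 and 5120 against 3877, 3499 and 3723 (log2 change -0.43 ± 0.08 SE, adjusted p = 0.00446). Rps4y2 had 11775, 10085 and 11978 against 7729, 7038 and 7403 (log2 change -0.61 ± 0.10 SE, adjusted p = 0.00215), and its parent Rps4x had 9598, 8950 and 9952 against 6963, 6048 and 6463 (adjusted p = 0.00237). In all 3 called paralogs the groups did not overlap. The rows with the symbol of a pseudogene, Rpl34-ps1 and Rps19-ps3, were not called (adjusted p = 0.527 and 0.0805).

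The paralogs Rps27l, Rpl22l1, Rpl39l and Rpl10l were not called, and in all of these but Rpl10l KO 7 was above or near the highest wild-type library. Rpl39l, the counterpart of Rpl39 that is known from male germ cells, had values of 1471, 829.8 and 1169 in the wild type and of 756.2, 1741 and 708.2 in the knockout (log2 change -0.20 ± 0.31 SE, adjusted p = 0.636). Rpl39 itself had 4403, 3560 and 4927 against 2448, 5503 and 2480 (log2 change -0.40 ± 0.27 SE, adjusted p = 0.265). Both genes were highest of all 6 libraries in KO 7 and were below every wild-type library in KO 5 and KO 8. Summed germ cell markers were also highest in KO 7, at 39495, against 26723 and 23982 in KO 5 and KO 8 and 23833 to 35312 in the wild type; their part in the level of Rpl39l was not tested. The coding sequences of the pair are shown because reads must tell them apart: they have the same length of 153 bases, differ at 23 positions, printed in capitals, and share no stretch of 50 bases, on the reference annotation GENCODE vM21 (GRCm38).
Rpl39: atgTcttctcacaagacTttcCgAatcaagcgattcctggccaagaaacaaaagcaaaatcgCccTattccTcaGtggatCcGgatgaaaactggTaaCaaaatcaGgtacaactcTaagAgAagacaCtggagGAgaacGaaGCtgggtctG
Rpl39l: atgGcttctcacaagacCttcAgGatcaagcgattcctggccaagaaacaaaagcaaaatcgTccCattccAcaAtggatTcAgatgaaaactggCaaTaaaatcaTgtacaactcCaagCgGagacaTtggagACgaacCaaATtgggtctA
Rpl10 and Rpl10l, Rpl36a and Rpl36al, and Rps27 and Rps27l were 84.7%, 87.7% and 76.2% identical over equally long coding sequences, and no pair shared a stretch of 50 bases.

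Rps27 and Rpl10 were each listed below their paralogs in level. Rps27 had values of 81.1, 87.0 and 104.1 in the wild type and Rps27l 3424, 3104 and 4419; per kilobase these came to 198.1 ± 26.1 and 6346 ± 1193 (SD, n = 3). The deposited span of Rps27 covers 229 bases, 20.3% of the span of its annotated gene. Rpl10 had 94.7, 85.2 and 96.8 and Rpl10l, a retrogene known from the testis, 421.7, 238.9 and 300.0, with 85.4% of the 50-base stretches of Rpl10 shared with other genes against 7.60% of those of Rpl10l. How reads that match several genes were counted is not given in the sources used here, so the levels of such genes, and the order within these pairs, are uncertain.

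The levels listed for the 76 subunit genes differed widely, and the lowest mean over the 6 libraries was 20.03, in Rpl26. There were 29 subunit genes with a mean under 1000, a limit chosen after the values were seen, and 47 at or above it. A median of 62.2% of the 50-base stretches of the 29 low genes was also found in another annotated gene, against 38.3% in the 47 high genes. Nearly all of the 76 genes shared a stretch of 50 bases with at least 1 annotated pseudogene, and the highest number was 121 pseudogenes, for Rpl7a. Among all genes with a length, 3.58% shared more than 50% of their stretches with other genes, against 43.4% of the members. Spearman's correlation between the shared percentage and the mean value per kilobase was -0.42 over the 76 genes, given as a description of points that come from the same libraries.

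**Figure D2:**
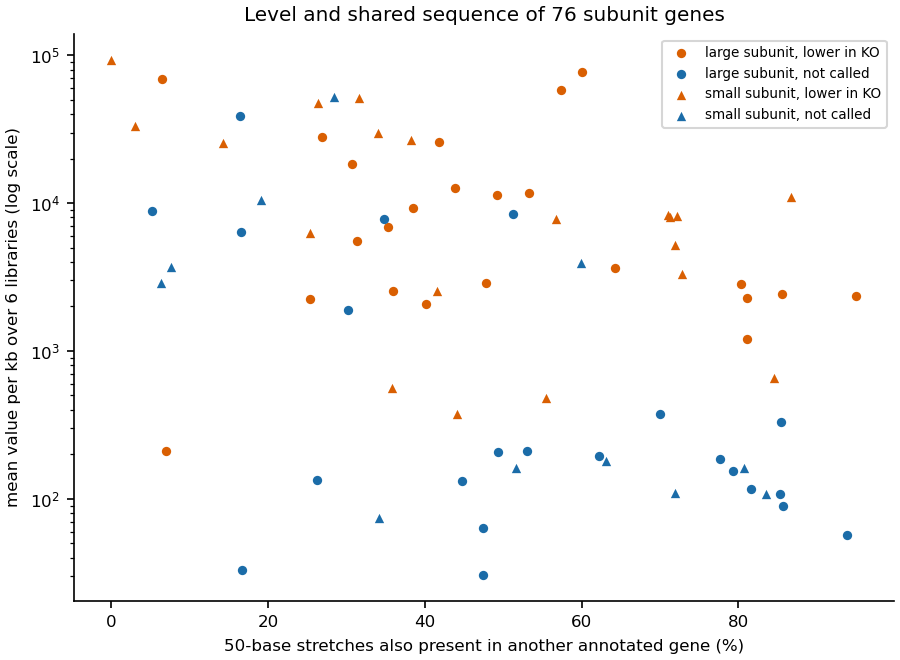
Each point is 1 of the 76 subunit genes; the horizontal axis is the percentage of its 50-base stretches found in another annotated gene, and the vertical axis, on a log scale, is its mean value per kilobase over 6 libraries. The 29 genes with a mean value under 1000 had a median of 162 per kilobase, and 18 of them lie to the right of 50%; the 47 others had a median of 8315 per kilobase, and 17 of them lie there. Genes called lower are in orange.

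Calls followed this division: 7 of the 29 low genes and 36 of the 47 high genes were called lower. Among all genes the share was 17.0%, and in the shortest of 5 equal groups by transcript length it was 46.3%. The median log2 change was -0.33 in the low genes and -0.59 in the high genes, and the median SE was 0.20 and 0.12. Several low genes also had deposited spans that covered little of the gene: Rpl26 spanned 23 bases (0.425% of the annotated gene), Rpl11 13.6% and Rps28 26.4%. A short span did not always go with a low value, since Rps14, at 12.6%, was among the highest levels per kilobase and Rps20, at 26.0%, had values between 9463 and 17903. Whether shared sequence or short spans moved the changes between groups was not tested.

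Across all genes the change between the groups was ordered by transcript length. Over the 14486 tested genes with a matched transcript, a smooth curve on length explained 30.7% of the variance of the log2 change between knockout and wild type, and length and GC content together 41.9%. The longest protein-coding transcripts of the members had a median of 937 nucleotides, against 3116 over all genes, and the curve fitted to all genes gave the members a median log2 change of -0.42. In the shortest of 5 equal groups of genes by length, from 216 to 1788 nucleotides, 46.3% of all genes were called lower: 42 of the 72 members in it (58.3%) and 1299 of the 2826 other genes (46.0%). Their median log2 changes were -0.51 and -0.41. All 3 knockout libraries lay below all wild-type libraries in 61.1% of these members and 57.0% of the other genes. In the longest of the 5 groups, from 5107 nucleotides, 49 genes (1.69%) were called lower and 1319 higher.

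**Figure D3:**
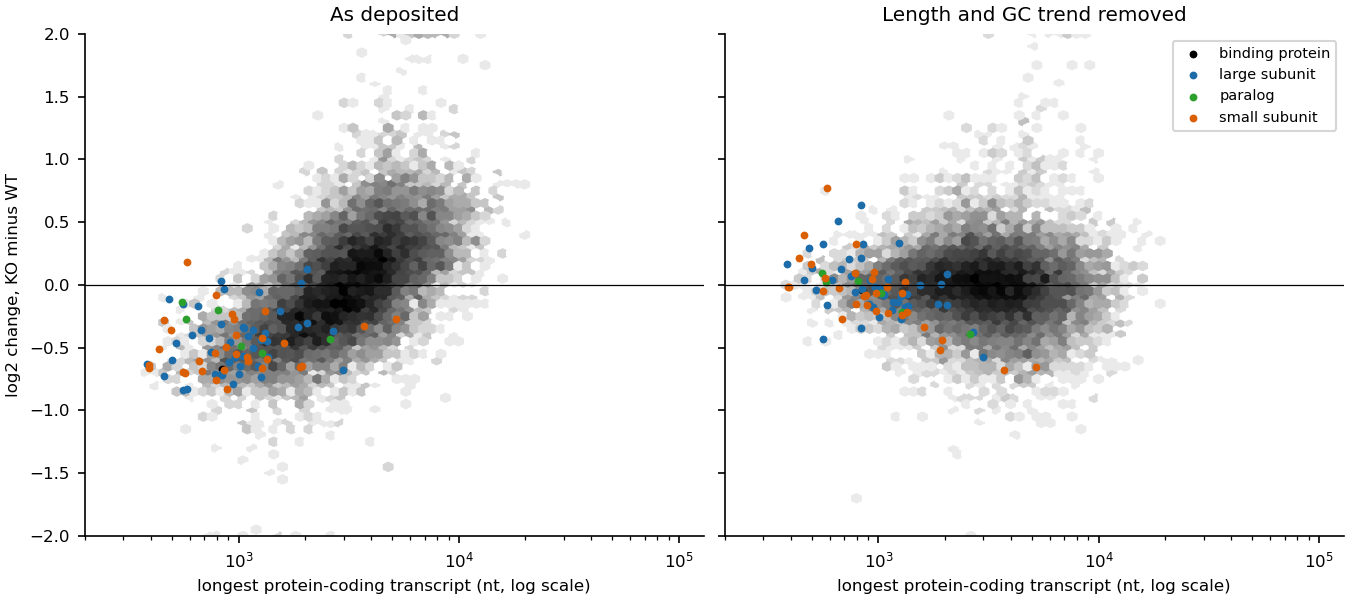
The grey cells count all 14486 genes by the length of their longest protein-coding transcript (log scale) and their log2 change, with changes beyond 2 drawn at the edge; coloured points are the 83 members with a length. On the left the members lie at the short end of a rising band, with a median of -0.49, and on the right, after removal of the trend on length and GC content in each library, they lie around 0, with a median of -0.05.

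After this trend was removed within each library, 6 of 83 members were called lower and 0 higher, against 5.75% and 5.65% of all genes. The median log2 change of the members was then -0.05, against -0.01 over all genes; 51 members were below 0 and 32 above. The log2 changes of the members had an SD of 0.23 before removal and 0.25 after. Their interquartile range was narrower after removal, from -0.17 to 0.06, against -0.65 to -0.33 before. The members called lower were Rps20, Rpl18, Rps3, Rpl37a, Rpl7l1 and Rpl37, and 5 of these had been called before removal, the exception being Rps20.

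Rps3, which lines the channel where the messenger RNA enters, had values of 78034, 67946 and 87282 in the wild type and of 49793, 52398 and 45166 in the knockout, with no overlap. Its log2 change was -0.66 ± 0.13 (SE; adjusted p = 0.0051) as deposited, -0.52 ± 0.12 (SE; adjusted p = 0.024) after removal, and -0.59 (adjusted p = 0.0148) when the length was that of the principal transcript. Rpl37 had 6027, 4791 and 6350 against 3244, 3770 and 3417, with no overlap, and log2 changes of -0.71, -0.34 (adjusted p = 0.015) and -0.42 (adjusted p = 0.00835) in the same order. Rpl37a, with the lowest log2 change as deposited, stood at -0.43 (adjusted p = 0.0474) and -0.50 (adjusted p = 0.0221) after removal. These 3 genes were therefore called with either choice of transcript, the principal transcript giving 5.65% lower and 6.55% higher calls over all genes. The transcript of Rps3 was longer than that of most members, at 1908 nucleotides, and those of Rpl37 and Rpl37a had 835 and 558.

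The calls of Rpl18 and Rpl7l1 depended on the transcript chosen. Rpl18 had values of 8478, 6996 and 9403 in the wild type and of 5488, 4775 and 5219 in the knockout, and after removal a log2 change of -0.58 (adjusted p = 0.0108) with its longest coding transcript of 2989 nucleotides but -0.02 (adjusted p = 0.894) with its principal transcript of 679. Rpl7l1 went from -0.39 (adjusted p = 0.0105) to -0.18 (adjusted p = 0.124) in the same way. Rps20 had 15296, 13100 and 16961 in the wild type and 10078, 17903 and 9463 in the knockout, with a log2 change of -0.33 (adjusted p = 0.248) as deposited and -0.68 (adjusted p = 0.0308) after removal; with the principal transcripts its adjusted p was 0.0223. Its longest and its principal transcript both have 3706 nucleotides, while its deposited span covers 26.0% of the annotated gene. The fitted curve takes it as a long message, and this length may overstate the message that was counted. The call of Rps20 after removal is therefore uncertain. With the principal transcripts, Rpl15 was called higher (log2 change 0.50, adjusted p = 0.0383), where it had stood at 0.00 (adjusted p = 0.986) with the longest.

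The members did not move alike across the knockout libraries. In 33 members KO 7 exceeded the lowest wild-type library, against 9 for KO 5 and 3 for KO 8. These are 38.4%, 10.5% and 3.49% of the members, whereas over all genes the shares were 60.9%, 62.1% and 61.4%, so each was lower in the members and the libraries differed little over all genes. In 77 members KO 5 and KO 8 were both below all wild-type libraries. KO 5 and KO 8 lay below all wild-type libraries in 66.3% of the other genes of the shortest group by length and 30.3% of all genes. KO 7 exceeded the mean of KO 5 and KO 8 by more than 0.5 on the log2 scale in 22 members (25.6%), against 7.44% of all genes and 10.5% of the other genes of the shortest group by length; 2 of these 22 were called lower. The members that were not called had a median log2 change of -0.49 for KO 5 and KO 8 and of 0.03 for KO 7, whereas the called members had -0.62 and -0.64. KO 7 was itself part of the fit that made the calls, so these divisions by call depend on it.

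Rps15a gives an example of this pattern. It had values of 16198, 13846 and 17693 in the wild type and of 10669, 21632 and 9689 in the knockout, so that KO 7 was the highest of all 6 libraries while KO 5 and KO 8 were the lowest. Its log2 change was -0.28 ± 0.25 SE (adjusted p = 0.418), and -0.64 (adjusted p = 0.00684) without KO 7. After removal of the trend Rps15a stood at -0.65 and was not called. Its annotated length, in the longest of the 5 groups by length, may overstate its message. Rps7 had 3997, 3865 and 4284 against 2868, 5019 and 2613, and Rpl22l1 had 3280, 2516 and 3354 against 2253, 4614 and 1992. In both, KO 7 again exceeded every wild-type library. Without KO 7, 61 members were called lower and 0 higher, against 14.2% and 13.9% of all genes; 14 were gained and 0 lost. The 14 were Rps14, Rpl39, Rpl35a, Rps24, Rps15a, Rps20, Rpl39l, Rpl17, Rps7, Rpl23, Rps27l, Rpl22l1, Rpl31 and Rpl22. The medians of GC content of the principal transcript were 47.0% in these 14 and 53.2% in the members called with all libraries.

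**Figure D4:**
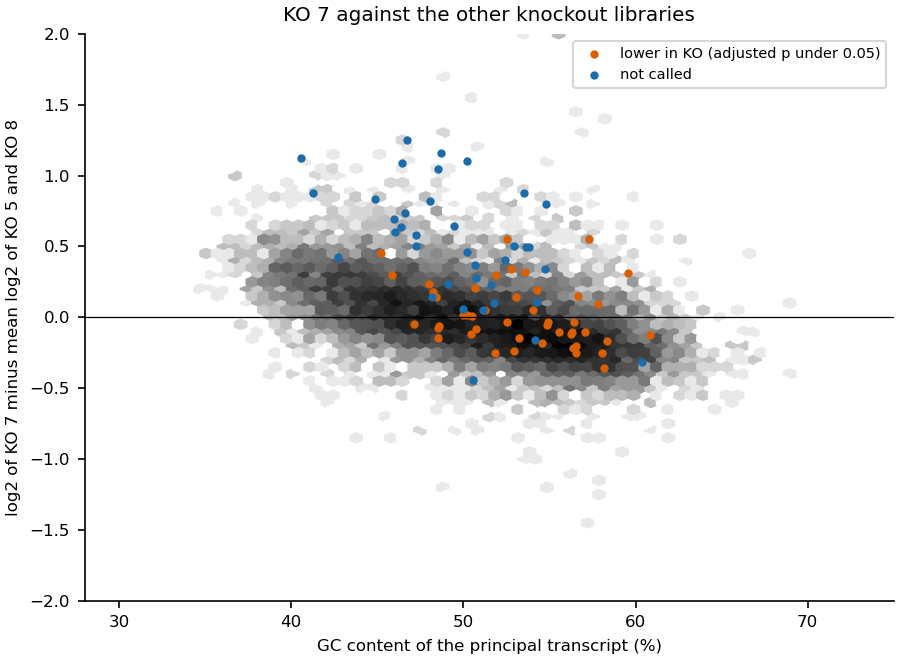
The grey cells count all 14486 genes and the coloured points are the 83 members with a length: the horizontal axis is the GC content of the principal transcript and the vertical axis is log2(value + 1) in KO 7 minus the mean of KO 5 and KO 8. The members follow the downward slope of all genes, and nearly all of those more than 0.5 above 0 are members that were not called. KO 7 was itself part of the fit that made the calls.

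Spearman's correlation between the GC content of the principal transcript and this excess of KO 7 was -0.55 over 83 members and -0.51 over the 14486 genes, given as a description of points that share the same 3 libraries. The correlation of the same GC content with the log2 change was -0.55 over the members and -0.51 over all genes, while that of the longest transcript's length with the log2 change was 0.14 over the members and 0.60 over all genes. The wild-type libraries were ordered too: WT 4 was the highest of them in 69 of the 86 members tested and WT 3 the lowest in 76, against 29.9% and 34.6% of all genes and 53.8% and 63.3% of the other genes of the shortest group by length. Whether GC content or handling of single libraries accounts for these orders was not tested.

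Each of 8 called members lost its call when at least 1 library was left out: Rpl13a, Rpl7, Rplp1, Rps21, Rps25, Rps28, Rps3a and Rpsa. The other 39 kept it without any single library. With 3 against 3 libraries an exact permutation test for 1 gene has a smallest possible p of 0.1, so the calls rest on the spread that limma shares across genes.

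The other genes of the ribosome and of its production were taken from lists of known function. Gnb2l1 and Fau, ribosomal proteins whose symbols fall outside the rule, were called lower. The call of Gnb2l1 was lost without WT 4 (adjusted p = 0.0502), and that of Fau without WT 4 (0.0844), without KO 5 (0.051) and without KO 8 (0.0608). Gnb2l1, the small subunit scaffold also called Rack1, had values of 83290, 76622 and 93340 in the wild type and of 61350, 59195 and 55718 in the knockout (log2 change -0.52 ± 0.13 SE, adjusted p = 0.0111), and -0.21 (adjusted p = 0.292) once the length and GC trend was removed. Fau, which encodes Rps30 as a fusion, had 321.0, 333.7 and 360.5 against 259.2, 252.5 and 230.0 (log2 change -0.45 ± 0.13 SE, adjusted p = 0.0205), and 0.26 (adjusted p = 0.276) after the same removal. Rps19bp1, counted among the members by its symbol, had 1759, 1571 and 1880 against 1118, 992.0 and 1163 (log2 change -0.67 ± 0.10 SE, adjusted p = 0.00193).

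Among 21 elongation factors and other messages with a TOP tract, 6 were called lower (28.6%) and 1 higher (4.76%), against 17.0% and 17.3% of all genes, with a median log2 change of -0.21, and their transcripts were longer than the members', with a median of 1939 nucleotides. Eif3k had values of 13622, 11864 and 15487 in the wild type and of 9508, 8673 and 9012 in the knockout (log2 change -0.58 ± 0.11 SE, adjusted p = 0.00358), and a log2 change of -0.042 (adjusted p = 0.799) after removal of the trend. Pabpc1, the poly(A)-binding protein, went the other way, with 8306, 9787 and 8598 against 12090, 12206 and 11439 (log2 change 0.42 ± 0.09 SE, adjusted p = 0.00721), and 0.38 (adjusted p = 0.0232) after removal of the trend. After removal 3 of the 19 genes with a length were called lower (15.8%) and 1 higher, against 5.75% and 5.65% of all genes. Of 57 genes of ribosome biogenesis, 13 were called lower (22.8%) and 6 higher (10.5%), with a median of 0.03, shares near those of all genes. After removal 6 were lower (10.5%) and 4 higher, against the same 5.75% and 5.65%, and 1 was called lower both times. Eif6, which keeps the new large subunit from joining too early, was lower (log2 change -0.69 ± 0.12 SE, adjusted p = 0.00315), but not after removal (-0.18, adjusted p = 0.234). Dkc1, the pseudouridine synthase, was higher (0.49 ± 0.09 SE, adjusted p = 0.00315), also after removal (0.33, adjusted p = 0.0258).

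Among 16 genes through which mTOR controls translation, 2 were called lower (12.5%) and 4 higher (25%), against 17.0% and 17.3% of all genes, with a median of 0.19 and a median transcript length of 5261 nucleotides. After removal of the trend 2 were lower (12.5%) and 1 higher, against 5.75% and 5.65% of all genes, with a median of -0.05. Eif4ebp1, a repressor of cap-dependent translation, had values of 4147, 3551 and 4322 in the wild type and of 2662, 2343 and 2728 in the knockout (log2 change -0.63 ± 0.10 SE, adjusted p = 0.00222). Its relative Eif4ebp2 had 378.7, 467.3 and 420.2 against 802.0, 654.0 and 784.0 (log2 change 0.82 ± 0.13 SE, adjusted p = 0.00195). The groups of both genes were fully apart, and after removal of the trend their log2 changes were -0.52 (adjusted p = 0.00895) and 0.63 (adjusted p = 0.00948). Of 12 genes of the p53 response, with which cells answer to faulty ribosome assembly, 3 were called lower (25%) and 5 higher (41.7%). After removal 0 were lower and 2 higher, against 5.75% and 5.65% of all genes. Cdkn1a, the cell cycle inhibitor, had a log2 change of -0.69 ± 0.18 SE (adjusted p = 0.0163), a call lost after removal (-0.38, adjusted p = 0.156) and without KO 5 (adjusted p = 0.0547). Mdm4, a p53 inhibitor, had 1.46 ± 0.13 SE (adjusted p = 0.000744), and 0.94 (adjusted p = 0.00508) after removal.

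Subunits of 3 other large complexes were also lower. Of 76 mitochondrial ribosomal proteins, 54 were called lower (71.1%) and 0 higher, with a median log2 change of -0.43. Of 81 subunits of the respiratory chain and ATP synthase, 56 were lower (69.1%) and 1 higher, with a median of -0.53. Of 39 proteasome subunits, 20 were lower (51.3%) and 1 higher, with a median of -0.34. The share called lower was 54.7% in the cytosolic members, 46.3% in the shortest group by length and 17.0% in all genes. Once the length and GC trend was removed, 19, 5 and 2 genes of the 3 lists were called lower, with medians of -0.05, -0.06 and -0.09. These are 25%, 6.17% and 5.13% of the lists, against 5.75% of all genes, so the share stayed above that of all genes in the mitochondrial ribosomal proteins and was near it in the others. A difference between the cytosolic ribosomal proteins and these complexes was not tested.

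**Figure D5:**
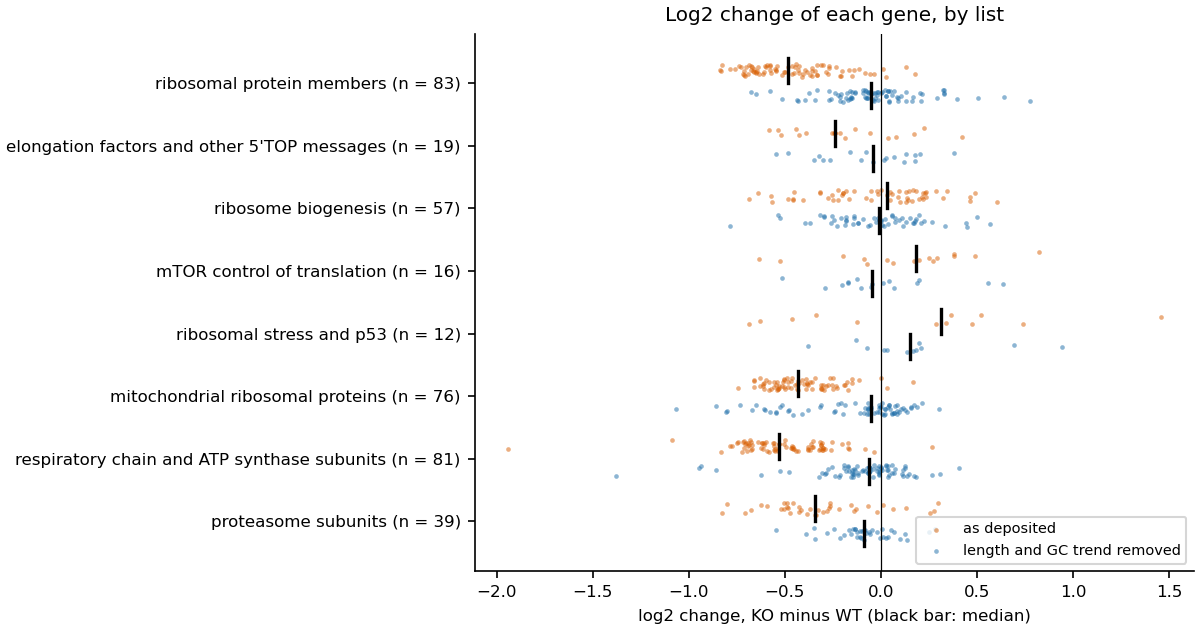
Each dot is a gene with a matched transcript, placed by its log2 change (knockout minus wild type), in orange as deposited and in blue once the length and GC trend was removed, with the median of each list as a black bar. The ribosomal protein members, the mitochondrial ribosomal proteins, the respiratory chain and the proteasome lie to the left of 0 as deposited, and after removal their medians lie between -0.09 and -0.05.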

How the data were processed

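Gonad RNA of 3 wild-type and 3 knockout libraries was sequenced after TruSeq library preparation from 1 ug of total RNA, per the labels' protocols. The deposited signal values are upper-quartile normalised pseudo-counts made by the authors; per the submitters' processing notes CASAVA 1.8.2, edgeR 2.6.2 and the mm9 build were used, while the sources used here do not state each tool's role, the read length, the gene annotation or the handling of reads that match several genes. Values were not whole reads, so depth is unknown and no count model was run. All value columns matched a library (0 unmatched).

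Values were tested with limma 3.58.1 in R 4.3.3 on log2(value + 1), which understates changes of low genes; tests were tried on simulated data. Length and GC content came from GENCODE vM21 transcripts (14486 of 15116 genes tested, 95.8%), and their trend was fitted in each library with natural splines of 4 degrees of freedom. Figures used matplotlib 3.10.9 in Python 3.11.15. Named genes were the members highest per kilobase, those with the lowest and highest changes, those called after removal of the trend, paralog pairs, preset members and up to 3 per direction of each list; Rps7, Rps12, Rps15a, Rpl15 and the members called without KO 7 were named after their values were seen. A few genes that this rule names are not reported here, although they were kept in all fits and counts. Members and gene lists were chosen with earlier results of these data known.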

Additional observations from a re-analysis of the deposited data

How the results depend on the processing

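The count of 47 members called lower stayed within 1.5 times under other pseudocounts, filters, scalings, priors, library weights and a threshold of 0.1, in a range from 36 (cyclic loess normalisation) to 66 (library weights). Leaving out each library in turn gave 39 to 61 members lower, median log2 changes of -0.59 to -0.42, and, over all genes, 1397 to 2546 lower and 1635 to 2495 higher, with the lowest counts without WT 4. Scaling to equal totals called 1690 of all genes lower, against 2571, and 3511 higher, against 2609, with 43 members lower.

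Removal of the length trend left 5 members lower (median -0.056; all genes 1075 lower, 1229 higher), and removal of the length and GC trend left 6 (median -0.051; 833 and 818). Fitting that trend without the members left 6 lower and 1 higher (median -0.042; 834 and 817), and leaving out WT 1 left 8 lower (median -0.093; 997 and 791). Chosen after seeing the data, the principal transcript left 6 lower and 1 higher (median -0.043; 819 and 949), and removal without KO 7 left 6 (median -0.10; 479 and 460). The knockout minus wild-type difference in the members' share of the summed values was -1.19 percentage points as deposited, -0.73 with quantile and -0.68 with cyclic loess normalisation. The median level per kilobase in the wild type was 2866 for large and 6442 for small subunit genes with the longest transcript, 3521 and 9824 with the shortest, and 3424 and 9381 with the principal transcript (also chosen after seeing the data).

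Changes of sign were counted for called and uncalled genes alike. The log2 changes of named genes that changed sign follow. With the length trend removed, they were Fau 0.083, Rpl10 0.47, Rpl11 0.20, Rpl22l1 0.44, Rpl36a 0.48, Rpl39 0.16, Rpl39l 0.31, Rpl7 0.074, Rps27 0.31, Rps27a 0.44, Rps27l 0.30 and Rps6 0.0026. With the length and GC trend removed, they were Bax 0.17, Fau 0.26, Larp4 -0.12, Rpl10 0.33, Rpl11 0.21, Rpl22l1 0.091, Rpl36a 0.29, Rpl38 0.039, Rpl39 0.036, Rpl39l 0.027, Rplp1 0.13, Rps14 0.091, Rps15 0.057, Rps27 0.40, Rps27a 0.33, Rps27l 0.019 and Rps6kb1 -0.17. With that trend fitted without the members, they were Bax 0.17, Fau 0.26, Larp4 -0.12, Mrpl54 0.0073, Rpl10 0.33, Rpl11 0.22, Rpl22l1 0.10, Rpl36a 0.30, Rpl38 0.051, Rpl39 0.042, Rpl39l 0.0302, Rplp1 0.14, Rps14 0.095, Rps15 0.065, Rps27 0.41, Rps27a 0.33, Rps27l 0.027 and Rps6kb1 -0.17. With that trend removed and without WT 1, they were Bax 0.064, Fau 0.16, Larp4 -0.12, Rpl10 0.29, Rpl10l 0.093, Rpl11 0.15, Rpl22l1 0.081, Rpl36a 0.30, Rpl39l 0.16, Rpl5 -0.077, Rplp1 0.076, Rps14 0.0298, Rps15 0.012, Rps27 0.24, Rps27a 0.26 and Rps6kb1 -0.17. With the principal transcript, they were Bax 0.16, Fau 0.24, Larp4 -0.14, Rpl10 0.34, Rpl11 0.14, Rpl22 0.0599, Rpl22l1 0.021, Rpl36a 0.23, Rpl39l 0.12, Rplp1 0.084, Rplp2 0.083, Rps14 0.039, Rps19 0.021, Rps27 0.22, Rps27a 0.27, Rps27l 0.0204 and Rps6kb1 -0.20. With the trend removed and without KO 7, they were Bax 0.20, Fau 0.23, Larp4 -0.13, Mrps18a 0.091, Mrps21 0.10, Rpl10 0.54, Rpl11 0.071, Rpl29 0.062, Rpl36a 0.19, Rpl38 0.14, Rpl8 0.025, Rplp1 0.0044, Rplp2 0.014, Rps15 0.046, Rps19bp1 0.025, Rps27 0.39, Rps27a 0.041 and Rps6kb1 -0.17. With library weights, it was Rpl10 0.058. With equal totals, they were Rpl10 0.065 and Rps27a 0.016. With equal totals of the other genes, it was Rpl10 0.047. Without KO 7, they were Rpl10 0.11 and Rpl5 -0.013. Without WT 4, they were Rpl10a -0.012 and Rps27a 0.0091. Without KO 5, they were Rpl10a -0.0803, Rpl22l1 0.0035 and Rpl36a 0.045. Without KO 8, they were Rpl22l1 0.092, Rpl39l 0.028 and Rps27a 0.28. Without WT 1, it was Rpl5 -0.0038. Over the fits that each left out 1 library, the lowest log2 changes, without KO 7, were -0.51 for Rpl22l1, -0.36 for Rpl36a, -0.62 for Rpl39l and -0.43 for Rps27a. The cause was not tested. No paired analysis was possible because the groups share no replicate number. The unknown depth, 3 libraries per group, unknown counting of shared sequence and trends on length and GC content that differ between libraries limit these results.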
